A study of Mus musculus with 5 samples.

Results

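Nmrk2 and 9 further genes of NAD metabolism were followed across hearts of calcineurin transgenic mice given JIB-04 or vehicle. The 10 genes were taken by symbol from the 19061 genes listed for each library, and all 10 were found. They are Nmrk2, Nmrk1, Nampt, Nmnat1 and Nmnat3 of NAD synthesis, the transhydrogenase gene Nnt, and the NAD consumers Cd38, Bst1, Sirt1 and Sirt3. They were selected on the CPM of these same JIB-04 and vehicle libraries, with that contrast known, so their differences are given as descriptions and not as tests.

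RNA sequencing was done on whole hearts of C57BL/6 mice at postnatal day 158. The JIB-04 group (3 libraries) had received JIB-04, an inhibitor of Jumonji histone demethylases, at 50 mg/kg from 4 weeks of age with 3 doses per week, and the vehicle group (2 libraries) had received the carrier. Hearts of both groups carried the calcineurin transgene, which is driven in cardiac myocytes by the alpha myosin heavy chain promoter and causes severe hypertrophy. No heart without the transgene was analysed here, so every level below is one of a heart with the transgene. The labels give no sex or litter, nor do they state that the libraries come from separate animals, so the p-values measure only the spread between these libraries, which may be in part technical. JIB-04 replicate 3 has a title with 1 letter of the genotype written differently, while its genotype field reads as in the rest.

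NAD carries electrons in energy metabolism and is used up as a substrate by sirtuins, PARPs and glycohydrolases, so cells rebuild it from breakdown products. In the main salvage route Nampt joins nicotinamide to a ribose phosphate to give NMN, and in a parallel route the kinases Nmrk1 and Nmrk2 phosphorylate nicotinamide riboside to the same NMN. The adenylyl transferases of the Nmnat family then turn NMN into NAD. Nampt is the main source of NAD in the healthy heart, while Nmrk2 is a kinase of striated muscle that is known to be induced in injured and failing mouse hearts.

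The depth was 33629722, 35650602 and 34782448 recovered reads in the JIB-04 libraries and 37002846 and 32152168 in the vehicle libraries. Values are the authors' deposited CPM, reads scaled by library size and a normalisation factor. A log2 fold change is JIB-04 minus vehicle on log2(CPM + 1), which understates changes of genes at low CPM. JIB-04 replicate 2 stood apart: it was the highest or the lowest of the 5 libraries for 53.8% of the 14414 genes tested, against 24.9% to 42.8% for the other libraries. It was the highest or the lowest for 6 of the 10 NAD genes, and values without it are given below. JIB-04 replicate 1 lay closer to the vehicle libraries than to the other JIB-04 libraries. By chi-square per degree of freedom on recovered reads, lower for more alike libraries, it was at 23.2 and 18.7 from vehicle replicates 1 and 2. From JIB-04 replicates 2 and 3 it was at 60.3 and 30.0. Cardiomyocyte markers, the defining genes of the labelled tissue, summed to 127361, 99039 and 116391 CPM in JIB-04 replicates 1, 2 and 3 and to 115921 and 131804 CPM in vehicle replicates 1 and 2. Ppp3ca, which encodes a calcineurin catalytic subunit, was at 4341 to 7275 CPM in JIB-04 and 6082 to 8022 CPM in vehicle libraries.

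Nmrk2 and Nampt are the start points of the 2 salvage routes, and their upstream sequences are shown with that of Nmrk1 so that the promoters of the muscle kinase, its paralog and Nampt can be compared. Each run is the 250 bases before a RefSeq transcription start on GRCm38.p6, written 5′ to 3′ on the gene's strand. For Nmrk2 that start is at 81202037. Capitals mark matches on either strand to the letters AGGTCA, a nuclear receptor motif, to the E-box CANNTG and to the TATA box TATAAA. The Nmrk2 window is chr10:81202038-81202287 on the minus strand, the Nmrk1 window chr19:18631766-18632015 on the plus strand and the Nampt window chr12:32820085-32820334 on the plus strand.
Nmrk2: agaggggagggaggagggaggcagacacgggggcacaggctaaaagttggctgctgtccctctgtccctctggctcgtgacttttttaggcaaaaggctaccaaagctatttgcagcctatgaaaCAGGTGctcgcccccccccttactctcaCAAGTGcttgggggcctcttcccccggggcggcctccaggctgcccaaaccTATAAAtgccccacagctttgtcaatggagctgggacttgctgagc
Nmrk1: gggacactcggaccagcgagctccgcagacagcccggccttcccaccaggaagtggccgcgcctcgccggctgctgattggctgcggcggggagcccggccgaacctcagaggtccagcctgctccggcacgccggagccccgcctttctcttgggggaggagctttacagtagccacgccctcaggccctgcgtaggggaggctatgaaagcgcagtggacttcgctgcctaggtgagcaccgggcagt
Nampt: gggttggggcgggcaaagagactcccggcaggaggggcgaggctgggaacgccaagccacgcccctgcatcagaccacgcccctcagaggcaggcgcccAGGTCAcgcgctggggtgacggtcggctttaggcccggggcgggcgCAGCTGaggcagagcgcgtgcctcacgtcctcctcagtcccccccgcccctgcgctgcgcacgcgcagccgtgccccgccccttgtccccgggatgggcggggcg

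The Nmrk2 window held a TATA box from 46 to 41 bases before the start, as did 12.4% of all 32851 promoters, and the Nmrk1 and Nampt windows held none. It also held 2 E-boxes, a motif present in 66.2% of promoters, where Nampt held 1 and Nmrk1 none. The Nampt window held 1 nuclear receptor motif, from 151 to 146 bases before its start, a motif found in 14.0% of promoters. None of the 3 windows held the NFAT core GGAAA (55.6% of promoters), the canonical E-box CACGTG of clock factors (6.02%) or a CArG box, the site of serum response factor (1.47%). GC content was 58.8% for Nmrk2, 69.2% for Nmrk1 and 75.6% for Nampt, against a median of 52.4% over all promoters. The RefSeq span of Nmrk2 reaches to 81202265, so most of its window lies within the span of the gene. The Nmrk2 positions above therefore count from the start at 81202037 and not from the outermost one. These matches describe the letters of the windows and say nothing of which factors bind.

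Nmrk2, the muscle nicotinamide riboside kinase (chromosome 10, 81198170 to 81202037), had 43.0, 113 and 58.4 CPM in JIB-04 replicates 1, 2 and 3, against 36.7 and 36.1 CPM in vehicle replicates 1 and 2. All 3 JIB-04 libraries lay above the vehicle libraries, by a small step in replicate 1 and by the largest in replicate 2. The means were 71.4 ± 36.7 CPM in JIB-04 (SD, n = 3) and 36.4 ± 0.4 CPM in vehicle (SD, n = 2), and the log2 fold change was 0.84 (SE 0.35). It became 0.45 once JIB-04 replicate 2 was left out and 1.14 once JIB-04 replicate 1 was left out. The exact Poisson interval (95%, counting error only) of JIB-04 replicate 1, from 40.8 to 45.2 CPM, lay above that of vehicle replicate 1, from 34.7 to 38.7 CPM. Over genes, chi-square per degree of freedom was 12.8 even between the vehicle libraries, far above counting error alone. These intervals therefore do not measure the spread between libraries, and no difference is read from them. Nmrk2 was the most variable of the 10 genes among JIB-04 libraries, with an SD of 0.70 on the log2 scale, while its SD was 0.02 in the vehicle libraries. Of all genes tested, 0.555% had a larger absolute log2 fold change. Nmrk2 was chosen with this contrast known, so nothing is read from that rank.

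In the annotation an antisense gene, Atcayos, shares 270 bases with the exons of Nmrk2, 14.6% of their length. The library kit keeps strand, but the strand setting of the counting is not given in the sources used here, so reads in the shared bases cannot be assigned with certainty. Atcayos had 12.6, 10.7 and 11.6 CPM in the JIB-04 libraries, against 12.5 and 17.1 CPM in the vehicle libraries. Its lowest library was JIB-04 replicate 2, the one with the most Nmrk2 and the lowest for 29.5% of all genes tested. The part of antisense reads in the Nmrk2 values was not tested.

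Nmrk1, the broadly expressed kinase with the same activity (chromosome 19, 18632016 to 18652184), had 4.65, 4.42 and 4.38 CPM in the JIB-04 libraries, against 4.92 and 4.72 CPM in the vehicle libraries. The groups did not overlap, and the libraries held only 145 to 183 reads on this gene. The Poisson intervals of all 5 overlapped (3.95 to 5.44 CPM in JIB-04 replicate 1, 3.98 to 5.56 CPM in vehicle replicate 2). They hold counting error only and not the spread between libraries, so nothing is read from their overlap. On the log2 scale the difference was -0.09 (SE 0.10). The longest stretch that any Nmrk1 and Nmrk2 transcripts share in the annotation is 25 bases. Per kb of exon, Nmrk2 made up 90.6%, 96.4% and 93.3% of the summed kinase level in JIB-04 replicates 1, 2 and 3, against 88.6% and 88.9% in vehicle replicates 1 and 2.

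Nampt, the rate-limiting enzyme of the nicotinamide route (chromosome 12, 32820335 to 32853369), had 153, 109 and 130 CPM in JIB-04 replicates 1, 2 and 3, against 144 and 169 CPM in vehicle replicates 1 and 2. The groups overlapped, since JIB-04 replicate 1 lay between the vehicle libraries, and JIB-04 replicate 2 was the lowest. The means were 131 ± 22 CPM in JIB-04 (SD, n = 3) and 156 ± 18 CPM in vehicle (SD, n = 2), with a log2 fold change of -0.27 (SE 0.15). It was -0.14 without JIB-04 replicate 2 and -0.15 when vehicle replicate 2 was left out instead.

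**Figure D1:**
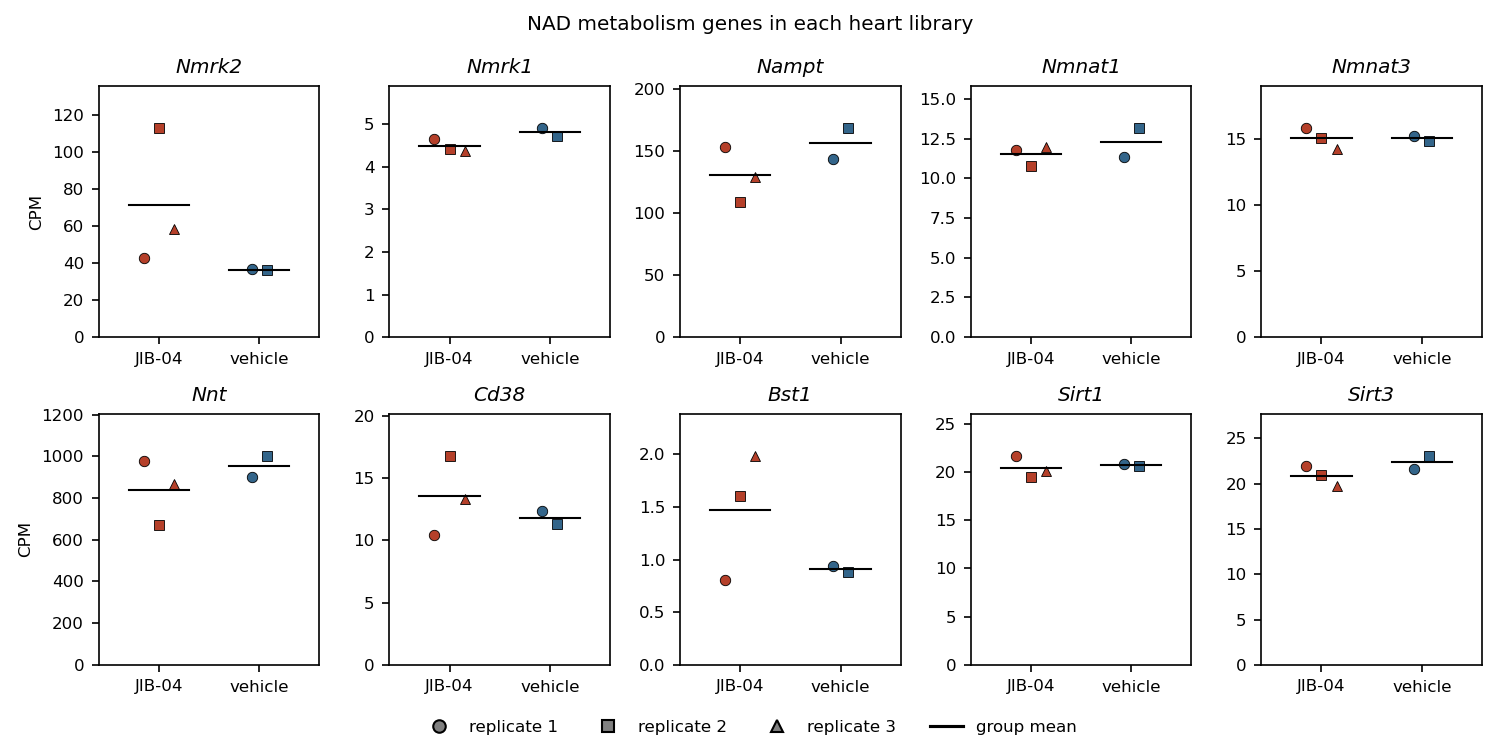
CPM of the 10 NAD genes in each library, with JIB-04 (red, 3 libraries) left of vehicle (blue, 2 libraries). Marker shapes give the replicate number and black lines the group means, and each vertical axis starts at 0. The 3 JIB-04 libraries of Nmrk2 sit at 43.0 to 113 CPM, above both vehicle libraries, and the groups overlap for every gene shown except Nmrk2 and Nmrk1.

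The balance of the 2 routes was set out as the ratio of Nmrk2 to Nampt within each library, where a common scaling factor cancels. In CPM the ratio was 0.28, 1.04 and 0.451 in JIB-04 replicates 1, 2 and 3, against 0.255 and 0.214 in vehicle replicates 1 and 2. All 3 JIB-04 libraries were above both vehicle libraries, replicate 1 by the least. The log2 ratio averaged 1.12 higher in JIB-04 than in vehicle, and 0.61 higher without JIB-04 replicate 2. Per kb of exon, where levels of the 2 genes can be compared, Nmrk2 stood at 0.684, 2.53 and 1.1 times Nampt in the JIB-04 libraries and at 0.622 and 0.522 times Nampt in the vehicle libraries. Nmrk2 thus exceeded Nampt per length in JIB-04 replicates 2 and 3 and in no other library.

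Markers of other cell types also differed across these libraries. Fibroblast markers (10 of 10 in the files) summed to 2688, 3876 and 3511 CPM in JIB-04 replicates 1, 2 and 3 and to 2812 and 2481 CPM in vehicle replicates 1 and 2. Macrophage markers (12 of 12) summed to 352, 489 and 558 CPM in JIB-04 and to 352 and 252 CPM in vehicle libraries. The libraries with most Nmrk2, JIB-04 replicates 2 and 3, had the highest sums of both lists. Endothelial markers (10 of 10) ran from 1034 to 1390 CPM in JIB-04 and from 1169 to 1240 CPM in vehicle, and red blood cell markers (7 of 8) from 857 to 1687 CPM in JIB-04 and from 2298 to 3485 CPM in vehicle. No marker on these 4 lists was at 0 in any library. In whole hearts, fewer cells of a type and less RNA per cell cannot be told apart, and the part of cell composition in the Nmrk2 and Nampt values was not tested.

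**Figure D2:**
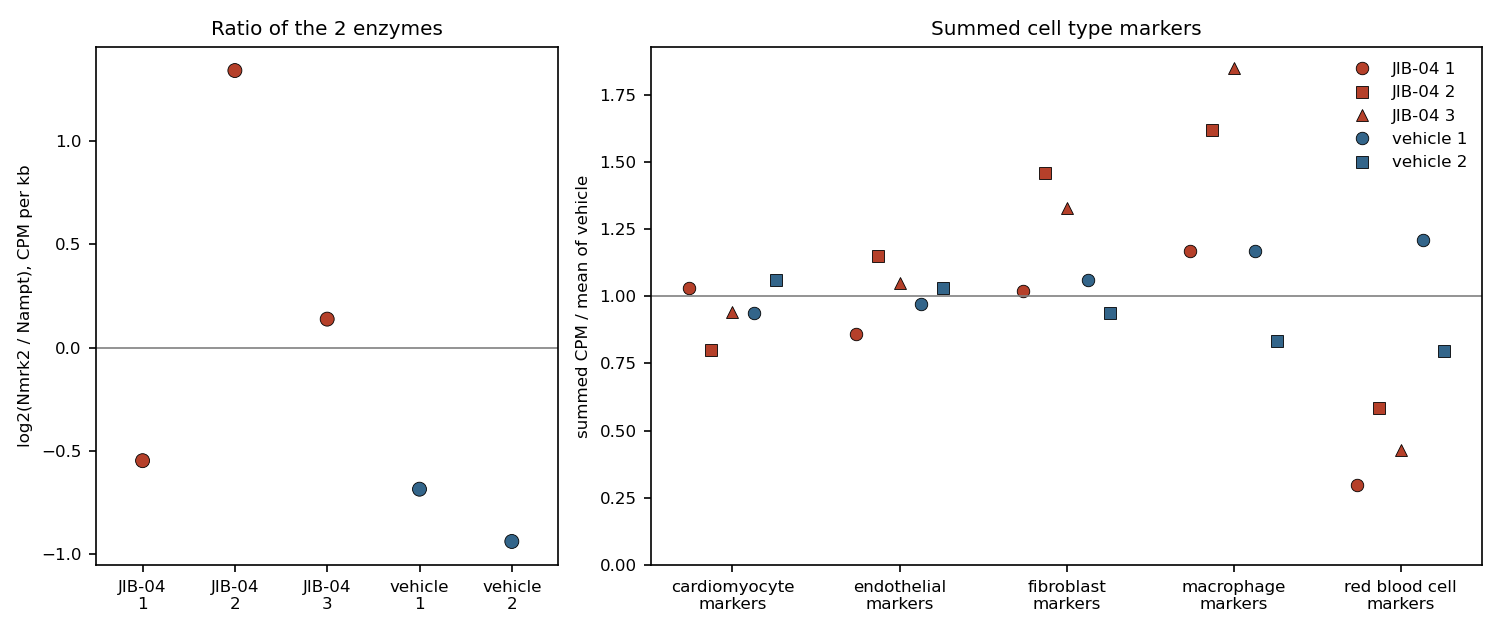
Left, log2 of the ratio of Nmrk2 to Nampt in CPM per kb of exon for each library, JIB-04 (red) before vehicle (blue), with the line at equal levels. Right, summed CPM of 5 marker lists in each library divided by the mean of the vehicle libraries. JIB-04 replicate 2 has the highest ratio, 1.34 on the log2 scale, and the lowest cardiomyocyte sum, 0.8 of the vehicle mean, and its fibroblast sum is 1.46 times the vehicle mean.

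The adenylyl transferases that both routes share had similar means in the groups. Nmnat1, the nuclear enzyme (chromosome 4, 149468787 to 149485142), had 11.8, 10.8 and 12.0 CPM in JIB-04 and 11.4 and 13.2 CPM in vehicle libraries. Nmnat3, described as the mitochondrial enzyme (chromosome 9, 98296583 to 98411428), had 15.8, 15.1 and 14.3 CPM in JIB-04 and 15.2 and 14.9 CPM in vehicle libraries. The groups overlapped for both genes. Their log2 fold changes were -0.08 (SE 0.10) for Nmnat1 and 0.00 (SE 0.09) for Nmnat3. No stretch longer than 13 bases is shared between their transcripts.

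Nnt, the inner membrane transhydrogenase that passes electrons from NADH to NADPH (chromosome 13, 119334317 to 119409138), had the highest level of the 10 genes per kb of exon. It had 976, 673 and 868 CPM in JIB-04 replicates 1, 2 and 3, against 901 and 1004 CPM in vehicle replicates 1 and 2. JIB-04 replicate 1 lay between the vehicle libraries and the other JIB-04 libraries lay below them. Its log2 fold change was -0.20 (SE 0.16), with -0.05 once JIB-04 replicate 2 was left out and -0.31 once JIB-04 replicate 1 was. Some C57BL/6 substrains carry a deletion of several Nnt exons. The labels give no substrain, and a value per gene does not show which allele these mice carry.

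Cd38, the main NAD glycohydrolase of tissues (chromosome 5, 43868827 to 43912374), had 10.5, 16.8 and 13.4 CPM in JIB-04 replicates 1, 2 and 3, against 12.4 and 11.3 CPM in vehicle replicates 1 and 2. JIB-04 libraries were both the lowest and the highest of the 5. Its log2 fold change was 0.16 (SE 0.18), with -0.001 once JIB-04 replicate 2 was left out and 0.32 once JIB-04 replicate 1 was. Bst1, the related surface enzyme CD157 encoded beside Cd38 (43818893 to 43843468), had 0.81, 1.61 and 1.99 CPM in JIB-04 replicates 1, 2 and 3, against 0.94 and 0.88 CPM in vehicle replicates 1 and 2. Its JIB-04 libraries again lay on both sides of the vehicle libraries. Bst1 rested on 27 to 70 reads per library. The Poisson interval of JIB-04 replicate 2, from 1.23 to 2.07 CPM, overlapped that of vehicle replicate 1, from 0.655 to 1.31 CPM. That of JIB-04 replicate 3, from 1.55 to 2.51 CPM, lay above both vehicle intervals. The intervals hold counting error only and not the spread between libraries, so no difference is read from them. The log2 fold change of Bst1 was 0.34 (SE 0.21) on log2(CPM + 1) and 0.70 by edgeR on recovered reads, 0.55 with 0.1 added to CPM in place of 1 and 0.13 with 5 added. Leaving out JIB-04 replicate 3 gave 0.19, and leaving out JIB-04 replicate 1 gave 0.55. Both genes are also expressed by leukocytes. Macrophage sums, given above, were highest in the JIB-04 replicates 2 and 3 in which Cd38 and Bst1 were highest. Neutrophil markers (7 of 8 in the files) summed to 9.03, 6.99 and 18.0 CPM in JIB-04 replicates 1, 2 and 3 and to 7.34 and 8.47 CPM in vehicle replicates 1 and 2, with Ngp at 0 in JIB-04 replicate 3. Lymphocyte markers (12 of 12) summed to 6.70 to 9.18 CPM in JIB-04 and to 4.66 and 5.11 CPM in vehicle libraries. The part of leukocyte content in the Cd38 and Bst1 values was not tested.

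Sirt1, a nuclear deacetylase that spends NAD (chromosome 10, 63319005 to 63339035), had 21.7, 19.4 and 20.1 CPM in JIB-04 and 20.8 and 20.6 CPM in vehicle libraries. Sirt3, the main mitochondrial deacetylase (chromosome 7, 140863663 to 140882309), had 22.0, 21.0 and 19.7 CPM in JIB-04 and 21.6 and 23.1 CPM in vehicle libraries. The groups overlapped for both sirtuins, and their log2 fold changes were -0.02 (SE 0.08) and -0.09 (SE 0.08). The exons of Sirt3 share 414 bases, 26.4% of their length, with a gene on the opposite strand that the annotation names Ric8a and the files Ric8. That gene was at 27.8 to 31.5 CPM in JIB-04 and 27.1 to 28.5 CPM in vehicle libraries. A further 152 bases are shared with Psmd13, at 73.4 to 80.0 CPM in JIB-04 and 76.9 to 78.8 CPM in vehicle libraries.

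Of the 10 genes, 1 (Nmrk2) had its 3 JIB-04 values above the vehicle values, and 1 (Nmrk1) had them below. Among all genes tested these shares were 10.7% above and 12.0% below, and since the genes were chosen with this contrast known, nothing is read from the counts. By limma at an adjusted p of 0.05, 0 of the 10 passed, where 0.0% of all genes were called higher and 0.0% lower. None passed by limma at an unadjusted p of 0.05 either, where 3.93% of all genes tested were higher and 2.51% lower. With 10 genes and such shares, nothing is read from this count. By edgeR, DESeq2 and limma-voom, 0 of the 10 were called. DESeq2 called 0.481% of all genes with an adjusted p higher and 0.113% lower, and limma without JIB-04 replicate 1 called 0.187% higher and 0.0139% lower, with 0 of the 10 among them. The values of Nmrk2 and Bst1 were positive and those of Nampt, Nnt, Nmrk1 and Sirt3 were negative in all 15 fits, while Nmnat1, Nmnat3, Sirt1 and Cd38 took either sign.

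**Figure D3:**
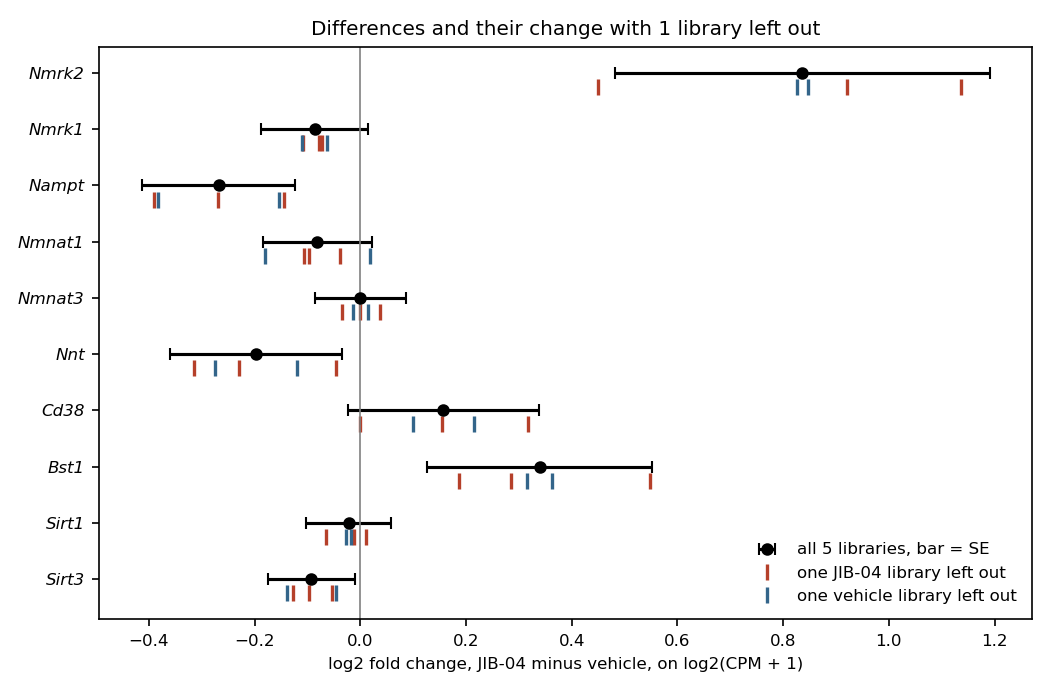
Log2 fold changes (JIB-04 minus vehicle, on log2(CPM + 1)) of the 10 NAD genes with all 5 libraries (black points, bars are SE). Ticks below each point are the fits with 1 JIB-04 library (red) or 1 vehicle library (blue) left out. Nmrk2 is at 0.84 and between 0.45 and 1.14 with 1 library left out, and Nampt is at -0.27 and between -0.39 and -0.14.

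Levels of different genes were compared per kb of exon, with exon lengths from GENCODE transcripts linked to RefSeq. In JIB-04 hearts Nnt led at 242 ± 44 CPM per kb (SD, n = 3), followed by Nmrk2 at 38.5 ± 19.8 and Nampt at 28.8 ± 4.9 CPM per kb. In vehicle hearts Nnt was at 275 ± 21 CPM per kb (SD, n = 2), Nampt at 34.6 ± 3.9 and Nmrk2 at 19.6 ± 0.2 CPM per kb. Nampt and Nmrk2 therefore traded places by their means, which rested on JIB-04 replicate 2, with Nmrk2 at 60.9 and Nampt at 24.0 CPM per kb. In JIB-04 replicates 1 and 3 Nmrk2 was at 23.2 and 31.5 and Nampt at 33.9 and 28.6 CPM per kb. The libraries of the 2 genes thus overlapped in JIB-04 hearts (23.2 to 60.9 CPM per kb for Nmrk2 and 24.0 to 33.9 for Nampt) and not in vehicle hearts. Below them in both groups came Sirt3 (13.3 ± 0.7 in JIB-04 and 14.2 ± 0.7 in vehicle), Nmnat1 (9.32 ± 0.52 and 9.92 ± 1.04) and Nmnat3 (6.95 ± 0.36 and 6.95 ± 0.11 CPM per kb). Sirt1 followed at 5.22 ± 0.30 in JIB-04 and 5.30 ± 0.02 CPM per kb in vehicle, then Cd38 at 4.14 ± 0.97 and 3.62 ± 0.22. Sirt1 and Cd38 overlapped across the JIB-04 libraries. Nmrk1 was at 2.31 ± 0.08 in JIB-04 and 2.48 ± 0.07 CPM per kb in vehicle, and Bst1 came last at 0.51 ± 0.21 and 0.32 ± 0.02. With all annotated transcripts merged, the order from the fourth to the eighth place changed, while the first 3 and the last 2 places did not.

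**Figure D4:**
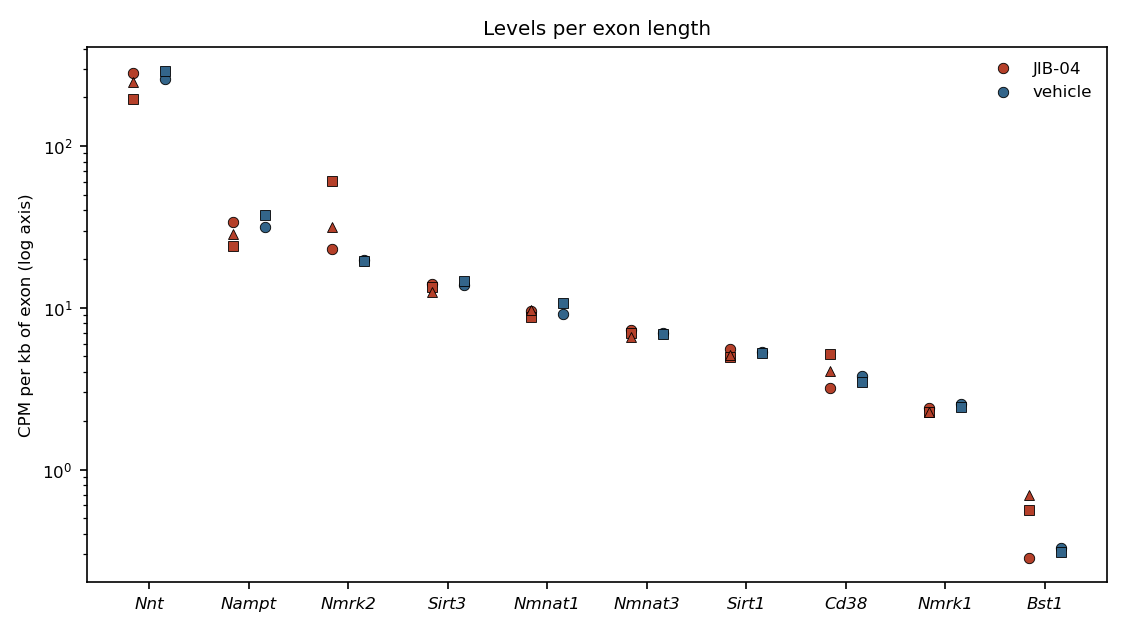
CPM per kb of exon on a log axis for the 10 NAD genes, ordered by the vehicle mean, with JIB-04 libraries (red) left of vehicle libraries (blue) for each gene. Marker shapes give the replicate number as a circle for 1, a square for 2 and a triangle for 3. Nnt libraries lie between 194 and 290 CPM per kb and those of Bst1 between 0.28 and 0.70, and the JIB-04 points of Nmrk2 spread from 23.2 to 60.9.

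The genes most like Nmrk2 in pattern were sought among 1496 genes with a mean of at least 5 CPM and a range of at least 0.5 on the log2 scale, by Pearson's r over the 5 libraries. They were Nkd2, an inhibitor of Wnt signalling, Tnfrsf10b, a death receptor, the protease Casp8, the matricellular gene Thbs4 and the non-muscle myosin gene Myh9, with r from 0.993 to 0.997. Thbs4 had 23.0, 75.0 and 35.7 CPM in JIB-04 replicates 1, 2 and 3, against 22.6 and 22.1 CPM in vehicle replicates 1 and 2. Nkd2 had 7.62, 18.2 and 10.7 CPM in JIB-04 and 7.18 and 6.58 CPM in vehicle libraries. The genes most like Nampt were Rtn2, a reticulon, the triglyceride synthesis enzyme Dgat2, the muscle protease Capn3, the cell cycle kinase Wee1 and the kinase gene Cdkl1, with r from 0.994 to 0.996. Dgat2 had 177, 104 and 140 CPM in JIB-04 replicates 1, 2 and 3, against 155 and 203 CPM in vehicle replicates 1 and 2. Between Nmrk2 and Nampt themselves r was -0.93. With 5 libraries that share 1 library standing apart, such values describe these libraries only.

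Other genes of NAD metabolism were counted on 10 further lists, which hold 117 genes, of which 116 were in the files and 107 could be tested. By limma, 0 of the 107 passed the adjusted threshold in either direction. At an unadjusted p under 0.05, 4 of the 107 had higher and 5 lower values, where 3.93% of all genes tested were higher and 2.51% lower, and edgeR, DESeq2 and limma-voom called 0. Their median log2 fold change was -0.05, against -0.01 for all 14414 genes tested, and 65.4% of the 107 were negative, against 53.1% of all genes tested. Single libraries weighed on these values: leaving out 1 library moved 24 of the 40 named genes on the lists, and 9 of the 10 list medians, by over 1.5 times. The median of the interferon-linked PARPs was the exception among the lists, at 0.24 to 0.32.

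Among genes that carry or convert nucleosides and nucleotides, the median was 0.07 over 10 genes, 6 of them positive. It turned to -0.01 when JIB-04 replicate 3 was left out and was 0.12 when JIB-04 replicate 1 was. Pnp, which splits nicotinamide riboside to nicotinamide, had 20.3 ± 1.6 CPM in JIB-04 and 17.6 ± 1.4 CPM in vehicle. Slc29a3 and Slc29a2, nucleoside transporters, had log2 fold changes of 0.15 and 0.18, and Nt5c2, a cytosolic nucleotidase, -0.13. With vehicle replicate 2 left out Slc29a3 was at 0.05 and Slc29a2 at 0.04, and with vehicle replicate 1 left out they were at 0.25 and 0.31. On the list of other NAD synthesis genes the median was 0.06 over 8 tested genes, and 0.11 without JIB-04 replicate 2. The largest value was that of Kmo, a kynurenine pathway enzyme, with 1.24 ± 0.13 CPM in JIB-04 and 0.66 ± 0.13 CPM in vehicle (log2 fold change 0.43, limma adjusted p = 0.596, and 0.93 by edgeR). Naprt1, which starts the nicotinic acid route, had 8.25 ± 0.795 and Nmnat2 0.42 ± 0.09 CPM in JIB-04, against 7.06 ± 0.315 and 0.28 ± 0.07 CPM in vehicle. Kmo rested on only 21 to 49 and Nmnat2 on 7 to 19 reads per library. Ccbl2, a kynurenine aminotransferase, had a log2 fold change of -0.16. Tdo2, Ido1, Ido2, Haao and Qprt of the route from tryptophan were each at or below 0.48 CPM in all 5 libraries.

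Of the sirtuins besides Sirt1 and Sirt3, 1 of 5 had a positive value and the median was -0.05. Sirt6 had a log2 fold change of 0.21, Sirt2 -0.12, Sirt4 -0.08 and Sirt7 -0.05. The PARP family list, with enzymes that transfer ADP-ribose from NAD and with Parg, which does not spend NAD, had a median of -0.04 over 12 genes. Parp1, the main nuclear enzyme, stood at 58.1 to 63.7 CPM in JIB-04 and 60.6 to 61.2 CPM in vehicle libraries. Tiparp had a log2 fold change of -0.26, Parp4 -0.12, Parp3 0.14 and Tnks2 -0.08, and Tiparp was at -0.01 when vehicle replicate 1 was left out and -0.51 when vehicle replicate 2 was.

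The 5 PARP genes linked to interferon each had the JIB-04 values above the vehicle values, where 10.7% of all genes tested did so, and their median log2 fold change was 0.27. Parp14 had 25.4 ± 1.3 CPM in JIB-04 and 19.5 ± 0.3 CPM in vehicle (log2 fold change 0.37, SE 0.08, limma adjusted p = 0.457). Zc3hav1, an antiviral PARP family member, had 11.4 ± 0.9 and Parp9 20.8 ± 1.2 CPM in JIB-04, against 8.53 ± 0.51 and 17.1 ± 0.6 CPM in vehicle, and Parp10 had a log2 fold change of 0.20. None of the 5 passed over all genes by limma, 3 of them had an unadjusted p under 0.05 with higher values, as did 3.93% of all genes tested, and edgeR, DESeq2 and limma-voom called 0. Higher values of interferon genes in these JIB-04 libraries were known when the list was drawn up, so the list is not independent of that pattern. Macrophage markers had 12 of 12 positive values with a median of 0.65, and their part in the PARP values was not tested.

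The list of remaining consumers and genes that dispose of nicotinamide, which also holds Macrod1 and Macrod2, had a median of -0.26 over 8 genes. Of these 7 were negative, as were 53.1% of all genes tested. The median ran from -0.39 without JIB-04 replicate 1 to -0.17 without JIB-04 replicate 2. Cardiomyocyte markers had 11 of 12 negative values with a median of -0.17, and their part in these values was not tested. Art1, a muscle ADP-ribosyltransferase, had 136 ± 25 CPM in JIB-04 and 184 ± 19 CPM in vehicle, and its 3 JIB-04 values lay below the vehicle values. Aox1, an aldehyde oxidase that acts on methylated nicotinamide, had 38.3 ± 4.4 CPM in JIB-04 and 50.9 ± 3.3 CPM in vehicle (log2 fold change -0.41, SE 0.11, limma adjusted p = 0.577). Art5 and Art3 had log2 fold changes of -0.53 and -0.37, and the groups overlapped for both. Nnmt, the methyltransferase that clears nicotinamide, had 1.62 to 3.19 CPM in JIB-04 and 2.12 and 2.53 CPM in vehicle libraries.

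Genes listed under NADP synthesis and NADPH production had a median of -0.05 over 21 genes. Nudt13 was at -0.18, Idh1 at -0.15, Aldh1l2 at 0.28 and Mthfd2 at 0.27. The list also holds genes that do neither, namely Nudt12, Nudt13, Slc25a51, Carkd and Apoa1bp. With 1 library left out Aldh1l2 ran from 0.07 to 0.49 and Mthfd2 from 0.08 to 0.46, vehicle replicate 2 giving the low and vehicle replicate 1 the high end. NADH shuttles and lactate dehydrogenases had a median of -0.11 over 13 genes, 12 of them negative, where 53.1% of all genes tested were negative. Cardiomyocyte markers had 11 of 12 negative values with a median of -0.17, and their part in this list was not tested. On this list Ldhd had a log2 fold change of -0.21, Slc25a13 -0.28, Mdh2 -0.16 and Slc25a12 -0.14, and the median was -0.21 without JIB-04 replicate 1, -0.20 when vehicle replicate 1 was left out and -0.04 when vehicle replicate 2 was. The list of NADPH users against peroxide, which also holds the antioxidant genes Cat, Sod1 and Sod2, had a median of -0.05 over 17 genes. Txnrd3 was at -0.23, Prdx3 at -0.15, Prdx5 at -0.12 and Cat at -0.15. Of the known regulators of Nmrk2 or Nampt (8 genes, median -0.01), Ppara, which has been reported to activate Nmrk2 transcription, had 146, 95.3 and 145 CPM in JIB-04 replicates 1, 2 and 3, against 163 and 166 CPM in vehicle replicates 1 and 2. Its lowest library was JIB-04 replicate 2, the library with most Nmrk2 and the lowest for 29.5% of all genes tested. The part of Ppara in the Nmrk2 values was not tested. Clock and Arntl, circadian activators of Nampt, had log2 fold changes of 0.17 and 0.38, and Esrra -0.05.

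**Figure D5:**
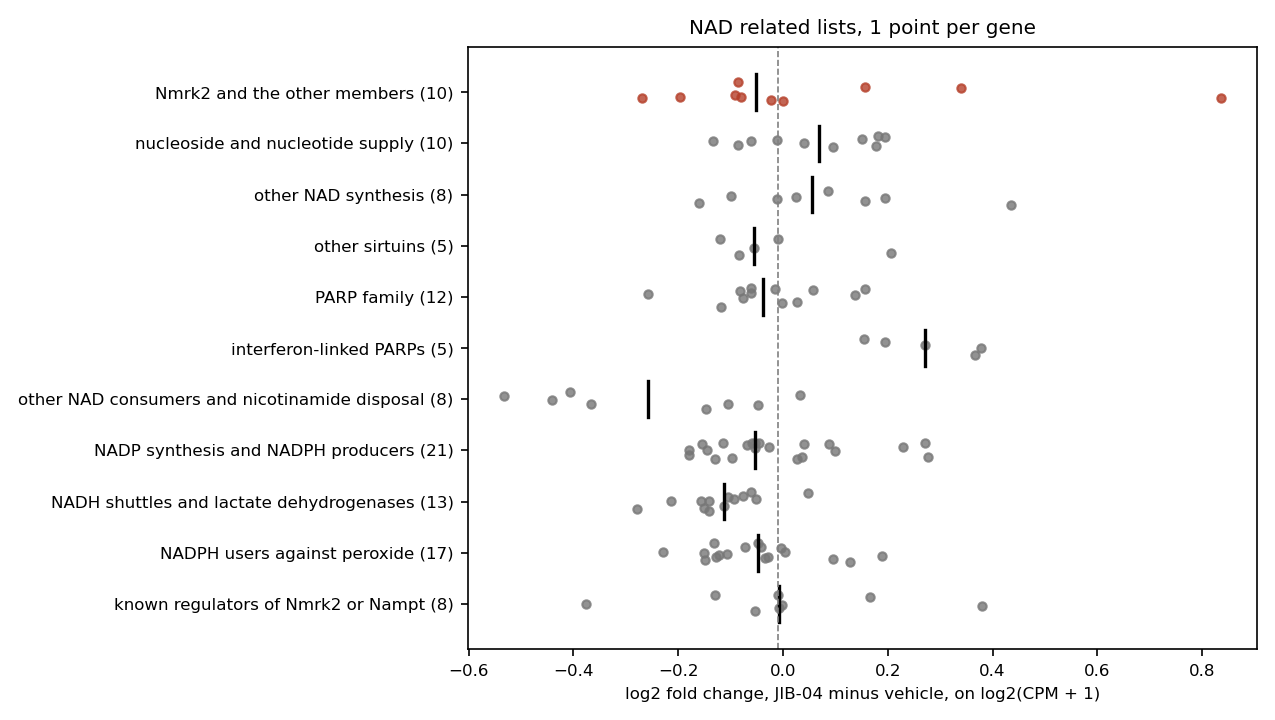
Log2 fold changes (JIB-04 minus vehicle, on log2(CPM + 1)) of the 10 NAD genes (red) and of 10 further lists (grey), 1 point per tested gene, with the number of genes in brackets. Black bars are list medians and the dashed line is the median of all genes tested, -0.01. Nmrk2 lies farthest to the right at 0.84, and the list medians run from -0.26 to 0.27.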

How the data were processed

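The authors' deposited column is headed CPM. The authors' deposited values are a normalised signal, whole reads divided by a scaled library size as far as the values show, because the columns sum to 954981 to 1046902. Per the submitters' processing notes, FastQC 0.11.2, TopHat2 2.0.12, Picard 1.127, featureCounts, Subread, edgeR and build mm10 were used, with no role or order stated. Per the labels' protocols, RNA was extracted with Trizol and libraries came from a stranded mRNA kit.

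Whole reads were recovered by dividing by the value of 1 read (100% of values within 0.01 of a whole number). The value of 3 reads was 0.0804 to 0.0977 CPM, for counting error only. A row with a blank name was dropped in each file and held no value, so its share of reads is 0. Genes were kept by edgeR's filterByExpr (at least 10 reads in enough libraries and 15 in total). The main test was limma (3.58.1, R 4.3.3) on log2(CPM + 1), using its trend option and Benjamini-Hochberg adjustment over all genes. edgeR 4.0.16, DESeq2 1.42.0 and limma-voom on recovered reads, other pseudocounts and filters, plain CPM, a replicate block and each library left out were alternatives. The limma step was tested on simulated counts.

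Starts in the files lay 1 base below RefSeq for 9785 of 17874 matched genes and equalled it for 660, so 1 was added. Exon lengths and overlaps are from GENCODE M21 on GRCm38, the build that mm10 names. RefSeq promoters (GRCm38.p6) were found for 8 of the 10 genes. Exons of a RefSeq annotation were not used here, so RefSeq-linked GENCODE transcripts replaced them.

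The members, lists and motifs were chosen with earlier results of these data known. Named genes are the 10 members, up to 4 genes with the smallest limma p from each list, and the 5 most like Nmrk2 or Nampt. A few further genes (Parp1, Nnmt and those near 0 CPM) were named after their values were seen.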

Additional observations from a re-analysis of the deposited data

How the results depend on the processing

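Over all genes limma called 0, and DESeq2 called 84 of the 14134 genes it gave an adjusted p. With 1 library left out, limma called 0 to 29 genes, the 29 without JIB-04 replicate 1. Called genes among the 10 members and among the other NAD genes stayed at 0 under all 14 alternatives. Genes at an unadjusted p under 0.05 numbered 928, and 276 to 2698 with 1 library left out. The log2 fold change of Nmrk2 ran from 0.45 to 1.14 and that of Nampt from -0.39 to -0.14. Each stayed within 1 residual SD of the fit (0.57 for Nmrk2 and 0.22 for Nampt). That SD is the spread of single libraries and is wider than the SE of the fold change (0.35 and 0.15). Leaving out 1 library moved both fold changes by over 1.5 times. The difference of log2(Nmrk2/Nampt) ran from 0.61 to 1.55 with 1 library left out (chosen after seeing the data). Over 65 results and 901 recomputed values, 48 moved by more than their spread, among them Bst1 (0.70 by edgeR and DESeq2) and Kmo (0.93 by both).

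With the replicate block, 0 genes were called, 532 had an unadjusted p under 0.05 and the log2 fold change of Nmrk2 was 0.92. JIB-04 replicate 3 has no partner, so these fold changes equal those without it. Deviations from the group mean correlated at -0.15 between libraries with the same number, for both numbers. The deviations of the vehicle libraries mirror each other, so these values are not independent. They cannot show whether the numbers pair the libraries. Plain CPM shifted the median of all genes to 0.04. Depth limits Nmrk1 and Bst1, with 27 to 183 reads per library.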
